A study of Mus musculus with 16 samples.

Results

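The collagen genes of mouse brain and of 3 kinds of genetically induced brain tumour were described. A gene was taken when its symbol was Col, a number, the letter a and a second number, and when a probe set of the array carried that symbol alone. This gave 44 collagen genes, read by 46 probe sets, among 19936 genes measured on 16 Affymetrix arrays, 4 for each of 4 groups. The members were taken by name, under a rule chosen with earlier results of these data known, and all 44 collagens of the reference gene table were measured.

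Normal brain carried wild-type pdgfb, trp53 and rbpj genes and was the control. PDGF+p53-/- tumours came from p53 floxed mice given a retrovirus that expressed the mitogen PDGF-B, which drives division of glial precursors, and Cre recombinase from 1 transcript (PDGF-IRES-Cre). PDGF+p53-/-RBPjk-/- tumours arose from the same virus in animals whose p53 and RBPjk alleles were both floxed. RBPjk is the DNA-binding partner through which Notch receptors act. For p53-/-RBPjk-/- tumours no virus was used, and the Hes5::CreERT2 transgene removed both genes in Hes5+ cells, a gene that marks neural stem cells. So the p53-/-RBPjk-/- tumours differed from the others in the absence of PDGF-B and also in how and in which cells Cre acted, and these cannot be told apart. Every tumour group lacked p53, tumours were dissected by the glow of a Cre-dependent GFP reporter once mice showed symptoms, and ages are not stated in the labels. The labels do not say that the 4 samples of a group came from separate animals, so p-values measure only the spread between these samples, which may be technical.

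Collagens are matrix proteins built from 3 chains wound into a helix. Fibrillar collagens (types I, II, III, V, XI) form the fibres of connective tissue, type IV forms the sheet of basement membranes around vessels, and type VI forms beaded filaments. The FACIT collagens bind to the surface of fibrils, transmembrane collagens sit in cell membranes, and multiplexins lie in basement membranes. In normal brain most collagen is made in the meninges and in vessel walls, while the tissue between neurons holds little fibrillar collagen.

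Values are log2 expression values, so a difference of 1 is a 2-fold change, and a value does not rank one gene's abundance against another's. Arrays of 1 group correlated with r from 0.971 to 0.989 across genes. Rbpj read 8.17 to 8.50 in PDGF+p53-/- tumours and 7.55 to 7.93 over both RBPjk-deleted groups, with no overlap. Normal brain, at 7.76 to 8.21, overlapped all 3 tumour groups, so Rbpj does not separate the deleted groups from the control. Pdgfb read 5.81 to 6.31 in PDGF+p53-/- tumours against 5.69 to 6.20 in normal brain, and the sources do not say whether its probes read the viral transcript. The 8 neuron markers were lower in all tumour groups. Replicate 3 of each tumour group held the most neuron signal, with a mean over these markers of 8.76, 8.50 and 7.80 against 10.55 to 10.71 in normal brain. Results were therefore also computed without these 3 arrays. In such bulk samples fewer cells of a type and less RNA per cell cannot be told apart.

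Against normal brain Col11a1 moved far more than any other collagen in every tumour group. A gene is called when its adjusted p (limma, Benjamini-Hochberg over all 19936 genes) is under 0.05. In PDGF+p53-/- tumours 8 of the 44 collagens were called, 6 higher and 2 lower, which is 18.2%, while 31.1% of all genes were called. In PDGF+p53-/-RBPjk-/- tumours 8 were called, again 6 higher and 2 lower, against 33.6% of all genes. In p53-/-RBPjk-/- tumours 8 were called, 6 higher and 2 lower, against 36.8% of all genes. This last count rested on single arrays: it was 4 without p53-/-RBPjk-/- replicate 2 or 4 and 5 without normal replicate 2, while leaving out 1 array gave 6 to 8 in the other groups. The share called higher, 13.6% of collagens in each group, stood beside 13.6%, 15.7% and 16.4% of all genes, and the share called lower, 4.55% of collagens, beside 17.6%, 17.9% and 20.4% of all genes. The median log2 difference of the collagens was 0.04, 0.01 and 0.04, and that of all genes was -0.04, -0.03 and -0.02. These 3 comparisons share the control arrays.

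In all, 11 collagens were called against normal brain in at least 1 tumour group and 5 in all 3. Col11a1, Col16a1 and Col18a1 rose in each of the 3 tumour groups, and Col6a4 and Col25a1 fell in each. A total of 32 collagens were called in none of the 6 comparisons. Of the 44 collagens, 30 reached a log2 value of 6 in at least 4 arrays. Of the called genes, Col6a4, Col9a3 and Col16a1 are given by their ranges or differences only, after their values were seen. The 14 dimmer genes, among them Col4a3, Col4a4, Col6a4, Col6a5 and Col25a1, lay where the table gives no detection call.

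**Figure D1:**
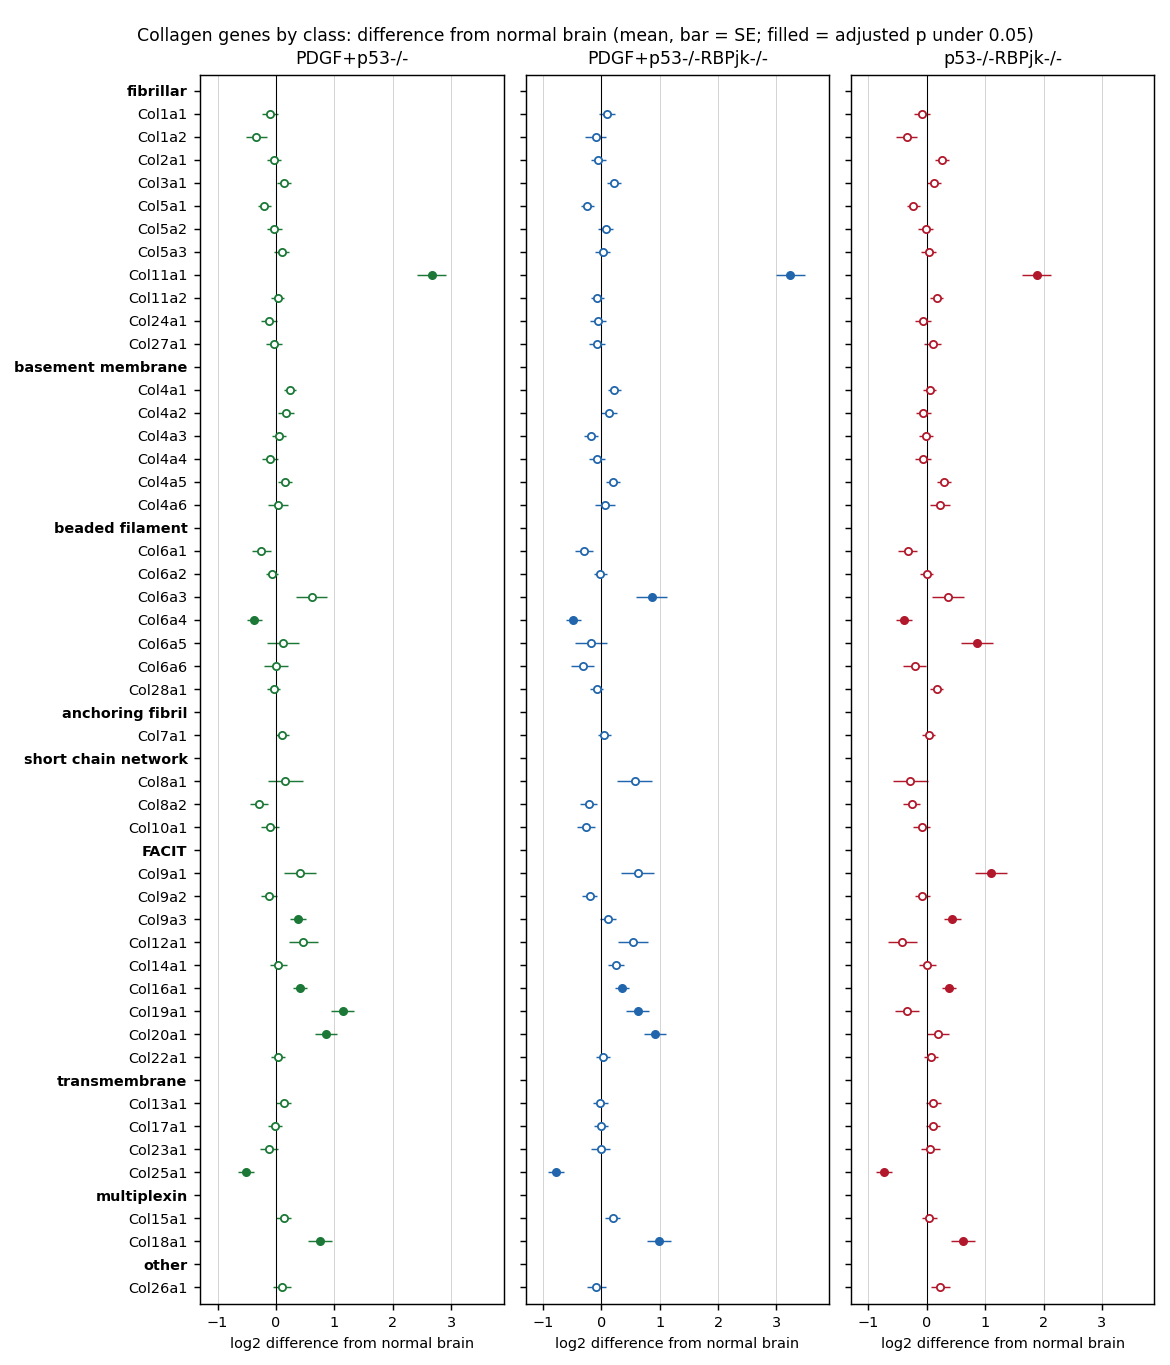
Log2 difference of each of the 44 collagen genes from normal brain in the 3 tumour groups, ordered by collagen class. Points are differences of group means of 4 arrays, bars are standard errors of the fit and filled points passed an adjusted p of 0.05; Col11a1 lies far to the right in each panel, at 2.67, 3.24 and 1.88.

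The stretches before the start of the 3 collagens called higher in all 3 tumour groups are shown. These calls share the control arrays, and whether the 3 genes move together was not tested. Each is the part of RefSeq's 250 bases before the start that lies outside the gene as annotated (build GRCm38.p6). Col11a1 is on the plus strand with its stretch at chr3:114030290-114030478, Col16a1 on the plus strand at chr4:130047590-130047816, where the non-collagen locus Gm12963 overlaps, and Col18a1 on the minus strand at chr10:77166531-77166780. Capitals mark CCAAT and GGGCGG on either strand, so ATTGG and CCGCCC are the same motifs read from the other strand.
Col11a1: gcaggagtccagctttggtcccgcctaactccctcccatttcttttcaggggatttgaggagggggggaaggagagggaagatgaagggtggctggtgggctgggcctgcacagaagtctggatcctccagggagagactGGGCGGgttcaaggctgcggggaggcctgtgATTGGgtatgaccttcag
Col16a1: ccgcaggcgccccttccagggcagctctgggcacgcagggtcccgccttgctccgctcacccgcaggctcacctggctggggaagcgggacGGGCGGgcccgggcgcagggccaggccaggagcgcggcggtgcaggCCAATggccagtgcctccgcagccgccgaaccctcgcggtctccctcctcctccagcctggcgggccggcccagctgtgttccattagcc
Col18a1: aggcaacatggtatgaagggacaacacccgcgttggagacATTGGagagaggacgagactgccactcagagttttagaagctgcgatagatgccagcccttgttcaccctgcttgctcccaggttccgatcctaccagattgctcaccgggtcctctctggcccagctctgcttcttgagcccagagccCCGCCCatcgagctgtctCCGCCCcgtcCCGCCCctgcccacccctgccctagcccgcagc

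CCAAT is the core that the factor NF-Y recognises, and GGGCGG is the core of the GC box. Over the full 250 bases, Col11a1 held 1 CCAAT and 2 GGGCGG, Col16a1 held 1 and 1, and Col18a1 held 1 and 3. The windows of the 2 collagens that fell in all 3 groups also held both motifs, with 1 CCAAT and 2 GGGCGG in Col6a4 and in Col25a1. The windows are not alike, since all 250 bases of Col25a1 and 137 of Col6a4 lay inside the gene as annotated. For Col11a1 61 bases did and for Col16a1 23. Among 38 windows of 35 collagens in the table, 34.2% held CCAAT and 57.9% held GGGCGG, and among all 32851 windows 33.8% and 32.7% did. TGGGAA, the core bound by RBPJ and searched after the values were seen, stood in 31.6% of collagen windows and 21.6% of all windows. It was absent from the windows of Col11a1, Col16a1, Col18a1 and Col25a1 and occurred 2 times in that of Col6a4. A match describes letters only.

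Among the 11 fibrillar collagens, Col11a1 alone was called, and it rose in all 3 tumour groups. Col11a1 encodes a chain of collagen XI, a minor fibrillar collagen best known from cartilage. In normal brain Col11a1 read 6.34, 6.64, 6.35 and 6.31 in replicates 1 to 4. In PDGF+p53-/- tumours it read 9.08, 9.54, 8.56 and 9.15. In PDGF+p53-/-RBPjk-/- tumours it read 9.63, 9.74, 9.60 and 9.61. In p53-/-RBPjk-/- tumours it read 8.26, 8.80, 7.38 and 8.73. All 12 tumour arrays lay above all 4 normal arrays, and the PDGF+p53-/-RBPjk-/- arrays were the highest and the closest to each other.

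The difference of Col11a1 from normal brain was 2.67 ± 0.25 (SE; 6.38-fold, adjusted p = 3.29e-07) in PDGF+p53-/- tumours. It was 3.24 ± 0.25 (9.43-fold, adjusted p = 3.18e-08) in PDGF+p53-/-RBPjk-/- tumours. In p53-/-RBPjk-/- tumours it was 1.88 ± 0.25 (3.69-fold, adjusted p = 7.82e-06). In each comparison the exact two-sided permutation test gave p = 0.0286, the smallest that 4 against 4 arrays can give. Col11a1 was lower in p53-/-RBPjk-/- than in PDGF+p53-/-RBPjk-/- tumours by a log2 difference of -1.35 ± 0.25 (adjusted p = 0.00737), again without overlap. The difference of p53-/-RBPjk-/- from PDGF+p53-/- tumours, -0.79, missed the threshold (adjusted p = 0.0704). Adding the RBPjk deletion to the PDGF model gave 0.56 (95% interval 0.05 to 1.08, adjusted p = 0.933), with no overlap of the arrays. The 4 calls of Col11a1 held in all 24 other settings, with differences from 2.52 to 2.85, 3.20 to 3.32, 1.71 to 2.19 and -1.52 to -1.05.

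Oligodendrocyte precursor markers also rose: 8 of 8, 8 of 8 and 7 of 8 were called higher in the 3 tumour groups. Of all genes 13.6%, 15.7% and 16.4% were. The mean of the 8 markers stood 1.95 to 2.25 above normal brain in PDGF+p53-/- arrays, 1.91 to 2.07 in PDGF+p53-/-RBPjk-/- arrays and 1.12 to 1.89 in p53-/-RBPjk-/- arrays. The p53-/-RBPjk-/- array with the lowest Col11a1, replicate 3, also had the lowest value of these markers and was the neuron-rich array of its group. In the PDGF-B groups the order differed. In PDGF+p53-/- tumours Col11a1 was lowest in replicate 3 (8.56) and the markers in replicate 1 (1.95). In PDGF+p53-/-RBPjk-/- tumours replicate 2 had the highest Col11a1 (9.74) and the lowest marker mean (1.91). The part of these markers in the result was not tested.

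Collagens I and III, the abundant fibrillar collagens of connective tissue, did not pass the test in any comparison. Col1a1 read 6.76, 6.34, 6.66 and 6.69 in normal brain, 6.63, 6.29, 6.58 and 6.54 in PDGF+p53-/- tumours, 6.53, 7.12, 6.72 and 6.48 in PDGF+p53-/-RBPjk-/- tumours and 6.59, 6.38, 6.62 and 6.53 in p53-/-RBPjk-/- tumours. The 4 groups overlapped, and 1 PDGF+p53-/-RBPjk-/- array was the highest. The differences of Col1a1 from normal brain were -0.10 (95% interval -0.40 to 0.20), 0.10 (-0.20 to 0.40) and -0.08 (-0.38 to 0.22).

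Col1a2, which pairs with Col1a1 in collagen I, read 6.63, 6.53, 6.82 and 6.67 in normal brain and 6.80, 6.09, 6.16 and 6.24 in PDGF+p53-/- tumours. It read 6.55, 6.98, 6.67 and 6.05 in PDGF+p53-/-RBPjk-/- tumours and 6.22, 6.37, 6.34 and 6.34 in p53-/-RBPjk-/- tumours. All p53-/-RBPjk-/- arrays lay below all normal arrays, yet the difference of -0.34 (95% interval -0.71 to 0.02) was not called (adjusted p = 0.142). The other 2 differences were -0.34 and -0.10, with overlapping arrays. Col3a1, the chain of collagen III, read 6.14, 5.71, 6.0 and 5.95 in normal brain, 6.27, 6.06, 5.92 and 6.08 in PDGF+p53-/- tumours, 6.12, 6.34, 6.15 and 6.03 in PDGF+p53-/-RBPjk-/- tumours and 6.17, 5.96, 6.06 and 6.10 in p53-/-RBPjk-/- tumours. The groups overlapped, and the differences from normal brain were 0.14, 0.21 and 0.12. Col5a1 (-0.20, -0.24 and -0.23) and Col11a2 (0.03, -0.07 and 0.17), which can assemble with the XI chain, were not called either. The median over the 11 fibrillar genes was -0.03, -0.05 and 0.03.

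None of the 6 basement membrane collagens of type IV passed the test in any comparison. Col4a1 and Col4a2, the chains of the common vessel basement membrane, are neighbouring genes that share a start region. Col4a1 read 6.26, 6.30, 6.41 and 6.14 in normal brain, 6.47, 6.64, 6.43 and 6.53 in PDGF+p53-/- tumours, 6.32, 6.58, 6.43 and 6.64 in PDGF+p53-/-RBPjk-/- tumours and 6.20, 6.45, 6.40 and 6.27 in p53-/-RBPjk-/- tumours. The PDGF+p53-/- arrays lay above all normal arrays by a narrow gap, and the other groups overlapped normal brain. The differences of Col4a1 were 0.24 (95% interval 0.01 to 0.47, adjusted p = 0.107), 0.22 (-0.01 to 0.45) and 0.05 (-0.18 to 0.28).

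Col4a2 read 6.67, 6.89, 6.71 and 6.41 in normal brain, 6.85, 6.96, 6.62 and 6.94 in PDGF+p53-/- tumours, 6.73, 6.98, 6.90 and 6.59 in PDGF+p53-/-RBPjk-/- tumours and 6.45, 6.71, 6.66 and 6.64 in p53-/-RBPjk-/- tumours. All tumour groups overlapped normal brain, with differences of 0.17, 0.13 and -0.06. The other 4 chains ranged from -0.17 to 0.29 against normal brain. Endothelial markers showed 2, 2 and 3 of 10 lower and 0, 0 and 1 higher, and mural cell markers 2, 2 and 2 of 11 lower and 0, 2 and 0 higher. The shares lower, 20.0%, 20.0% and 30.0% of endothelial and 18.2% of mural markers in each group, stood beside 17.6%, 17.9% and 20.4% of all genes. The mean of the 10 endothelial markers was 6.75 to 6.93 in normal arrays and 6.30 to 6.77 over the tumour arrays. That of the 11 mural markers was 6.63 to 6.80 in normal arrays and 6.34 to 6.96 over the tumour arrays. Their part in the type IV values was not tested.

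Most other rises were in FACIT genes. Of 9 measured FACIT genes, 4 rose in PDGF+p53-/- tumours (44.4%) and 3 in each of the other groups (33.3%), and none fell, against 13.6%, 15.7% and 16.4% of all genes that rose. The median FACIT difference was 0.41, 0.36 and 0.08. Col16a1 was called in all 3 groups, Col19a1 and Col20a1 in the 2 groups with PDGF-B, Col9a3 in PDGF+p53-/- and p53-/-RBPjk-/- tumours and Col9a1 in p53-/-RBPjk-/- tumours. Being called in one group and not in another is no test of a difference, and between tumour groups only Col12a1, Col19a1 and Col20a1 of this class were called. The mean over the 9 genes stood 0.32 to 0.48, 0.27 to 0.43 and 0.06 to 0.23 above the normal mean in the arrays of the 3 tumour groups, while normal arrays ran from -0.10 to 0.08.

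**Figure D2:**
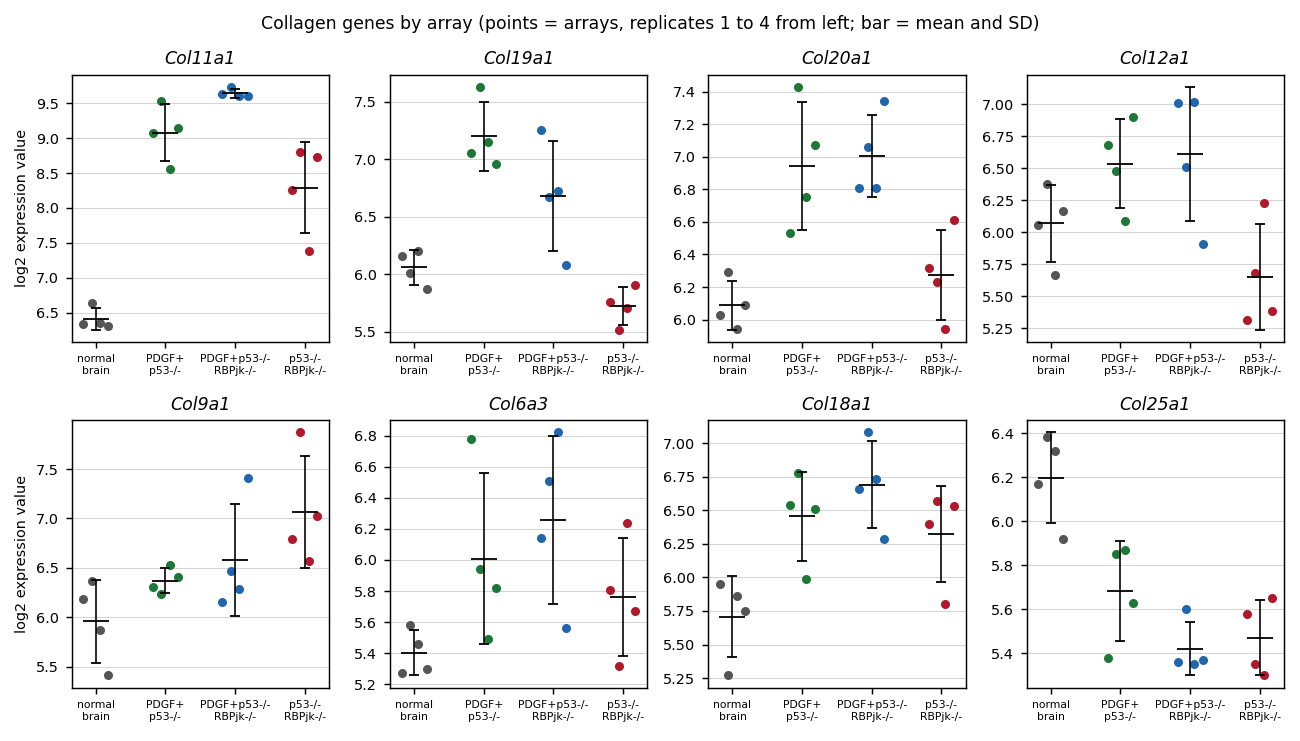
Log2 expression values of 8 collagen genes in each of the 16 arrays, 4 per group, with the group mean and SD; each panel has its own axis, which does not start at 0. Col11a1 separates every tumour array from normal brain, Col20a1 is above normal brain in every array of both PDGF-B groups, and Col25a1 is highest in normal brain. Col19a1 is above normal brain in all PDGF+p53-/- arrays and in all PDGF+p53-/-RBPjk-/- arrays but replicate 4.

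Col19a1 encodes a collagen of basement membrane zones that in brain is known from a subset of interneurons. Col19a1 read 6.16, 6.01, 6.20 and 5.87 in normal brain and 7.05, 7.63, 7.15 and 6.96 in PDGF+p53-/- tumours. It read 7.25, 6.67, 6.72 and 6.08 in PDGF+p53-/-RBPjk-/- tumours and 5.76, 5.52, 5.71 and 5.91 in p53-/-RBPjk-/- tumours. All PDGF+p53-/- arrays lay above normal brain, and all p53-/-RBPjk-/- arrays lay below both PDGF-B groups. PDGF+p53-/-RBPjk-/- replicate 4 (6.08) lay inside the normal range. Against normal brain the differences were 1.14 ± 0.20 (2.20-fold, adjusted p = 0.000225), 0.62 ± 0.20 (adjusted p = 0.0215) and -0.34 ± 0.20 (adjusted p = 0.206).

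Between tumours Col19a1 was lower in p53-/-RBPjk-/- than in PDGF+p53-/- tumours by -1.47 ± 0.20 (2.78-fold, adjusted p = 0.00059), a call that held in all 24 settings. Against PDGF+p53-/-RBPjk-/- tumours the difference was -0.95 ± 0.20 (adjusted p = 0.0146). This second call was lost without PDGF+p53-/-RBPjk-/- replicate 1 (adjusted p = 0.0506) or replicate 3 (0.0545), and without the 3 neuron-rich arrays (0.0966). The rise of Col19a1 in PDGF+p53-/-RBPjk-/- tumours was lost without normal replicate 4 (0.0634), without replicate 1 of that tumour group (0.092) and without the 3 neuron-rich arrays (0.0618).

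Col20a1 encodes a less studied FACIT chain. Its values were 6.03, 6.29, 5.94 and 6.09 in normal brain and 6.53, 7.43, 6.75 and 7.07 in PDGF+p53-/- tumours. PDGF+p53-/-RBPjk-/- arrays had 6.81, 7.06, 6.81 and 7.34, and p53-/-RBPjk-/- arrays had 6.32, 6.23, 5.94 and 6.61. Both PDGF-B groups lay wholly above normal brain, and p53-/-RBPjk-/- tumours overlapped it. The differences from normal brain were 0.86 ± 0.19 (adjusted p = 0.00163), 0.92 ± 0.19 (adjusted p = 0.000803) and 0.19 ± 0.19 (adjusted p = 0.484), and both calls held in all 24 settings.

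Col20a1 was lower in p53-/-RBPjk-/- than in PDGF+p53-/-RBPjk-/- tumours by -0.73 ± 0.19 (adjusted p = 0.0393) and than in PDGF+p53-/- tumours by -0.67 ± 0.19 (adjusted p = 0.043). Both calls were fragile. The first was lost on leaving out any 1 of 9 arrays (adjusted p 0.0518 to 0.119), namely normal replicates 1 and 4, every PDGF+p53-/-RBPjk-/- array and p53-/-RBPjk-/- replicates 1, 2 and 3. The second was lost without any 1 of 12 arrays (0.0508 to 0.14), that is all but normal replicate 2, PDGF+p53-/- replicate 1 and replicate 4 of both RBPjk-deleted groups. Without the 3 neuron-rich arrays the adjusted p was 0.159 and 0.155, with the other groups left out of the fit 0.0555 and 0.141, and with housekeeping centring 0.0828 and 0.062. Array weights ended the second (0.0879).

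Col12a1, a FACIT chain that sits on collagen I fibrils, was not called against normal brain. It read 6.06, 6.38, 5.67 and 6.17 in normal brain, 6.68, 6.48, 6.09 and 6.90 in PDGF+p53-/- tumours, 7.01, 6.51, 7.02 and 5.91 in PDGF+p53-/-RBPjk-/- tumours and 5.32, 5.68, 6.23 and 5.39 in p53-/-RBPjk-/- tumours. All groups overlapped each other in part, and the differences from normal brain were 0.47, 0.54 and -0.42. Between tumours it was lower in p53-/-RBPjk-/- than in PDGF+p53-/-RBPjk-/- tumours by -0.96 ± 0.25 (adjusted p = 0.0463) and than in PDGF+p53-/- tumours by -0.88 ± 0.25 (adjusted p = 0.0492).

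Each of these 2 calls of Col12a1 was lost on leaving out any 1 of 11 arrays. For the first (adjusted p 0.052 to 0.164) these were all but normal replicate 3, PDGF+p53-/- replicates 3 and 4, PDGF+p53-/-RBPjk-/- replicate 4 and p53-/-RBPjk-/- replicate 3. For the second (0.0519 to 0.126) these were all but replicate 3 of every group and PDGF+p53-/-RBPjk-/- replicate 4. Both were also lost with the other groups left out of the fit (0.0972 and 0.0872), with housekeeping centring (0.0676 and 0.0521) and with trend and robust settings (0.0502 and 0.0523). The first was lost without the neuron-rich arrays (0.0625) and the second with array weights (0.0619).

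Col9a1 and Col9a3 encode chains of collagen IX, which coats the collagen II and XI fibrils of cartilage. Col9a1 read 6.18, 6.37, 5.87 and 5.41 in normal brain, 6.31, 6.23, 6.53 and 6.41 in PDGF+p53-/- tumours, 6.15, 6.47, 6.28 and 7.41 in PDGF+p53-/-RBPjk-/- tumours and 6.79, 7.87, 6.57 and 7.02 in p53-/-RBPjk-/- tumours. Only the p53-/-RBPjk-/- arrays lay wholly above normal brain, and 1 PDGF+p53-/-RBPjk-/- array, replicate 4, stood near them. The differences of Col9a1 were 0.41 ± 0.28, 0.62 ± 0.28 and 1.10 ± 0.28, the last 2.15-fold and called (adjusted p = 0.0046) in all 24 settings too. The difference between p53-/-RBPjk-/- and PDGF+p53-/- tumours was 0.69 (adjusted p = 0.176).

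Col9a1 lies next to Col19a1 on chromosome 1, with no protein-coding gene between them in the reference table, yet in p53-/-RBPjk-/- tumours Col9a1 was 1.10 above normal brain and Col19a1 -0.34 from it. Col9a3 was 0.38 higher in PDGF+p53-/- tumours (adjusted p = 0.0474), 0.11 in PDGF+p53-/-RBPjk-/- tumours (not called) and 0.44 higher in p53-/-RBPjk-/- tumours (adjusted p = 0.02). The first was lost without any 1 of 11 arrays (adjusted p 0.0521 to 0.161), all but normal replicate 4, PDGF+p53-/-RBPjk-/- replicates 1 and 2 and p53-/-RBPjk-/- replicates 3 and 4. The last was lost without normal replicate 2 (0.0781) and p53-/-RBPjk-/- replicates 2 (0.0596) or 4 (0.066). The first was also lost with the other groups left out of the fit (0.0607), trend and robust settings (0.0502), array weights (0.0592) and without the neuron-rich arrays (0.0668). Col9a2, the third chain of collagen IX, gave -0.12, -0.20 and -0.08.

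Col16a1, a FACIT collagen of many tissues, differed little in size between tumour groups. Its values ran from 6.21 to 6.58 in normal brain, 6.73 to 6.90 in PDGF+p53-/- tumours, 6.60 to 6.95 in PDGF+p53-/-RBPjk-/- tumours and 6.60 to 6.96 in p53-/-RBPjk-/- tumours. No tumour array overlapped normal brain. The differences were 0.41 ± 0.12 (adjusted p = 0.0156), 0.36 ± 0.12 (adjusted p = 0.0308) and 0.38 ± 0.12 (adjusted p = 0.0211). Without normal replicate 4 these calls were lost (0.0567, 0.101 and 0.0752). The last 2 were also lost without normal replicate 2 (0.0836 and 0.0616) and without replicate 2 (0.061 and 0.0628) or 4 (0.1 and 0.0701) of their own tumour group, and with the other groups left out of the fit (0.0535 and 0.0537). The second also ended with housekeeping centring (0.0752) and without the neuron-rich arrays (0.0512).

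Among the 7 beaded filament collagens, Col6a4 was called lower in all tumour groups, Col6a3 was called higher in PDGF+p53-/-RBPjk-/- tumours and Col6a5 in p53-/-RBPjk-/- tumours. Col6a4 encodes a long chain that can take the place of Col6a3 in collagen VI. It ran from 5.57 to 5.93 in normal brain, 5.37 to 5.46 in PDGF+p53-/- tumours, 5.07 to 5.44 in PDGF+p53-/-RBPjk-/- tumours and 5.10 to 5.59 in p53-/-RBPjk-/- tumours. The first 2 tumour groups lay below normal brain, and p53-/-RBPjk-/- tumours overlapped it by 1 array. The differences were -0.37 (adjusted p = 0.0318), -0.48 (0.00637) and -0.39 (0.0219), and all these values are dim.

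The second of these Col6a4 calls held in all 23 settings that kept the gene. The first was lost without normal replicate 1 (0.0917) or 3 (0.0922) and without PDGF+p53-/- replicate 1 (0.0721), 2 (0.0675) or 4 (0.0519). The third was lost without normal replicate 1 (0.0682) or 3 (0.0671) and without p53-/-RBPjk-/- replicate 3 (0.0879). Housekeeping centring ended the first (0.105) and the third (0.139), and the third was also lost with the other groups left out of the fit (0.0551) and without the neuron-rich arrays (0.112).

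Col6a3, the third chain of the common collagen VI trimer, varied widely among tumours of 1 group. It read 5.27, 5.58, 5.46 and 5.30 in normal brain, 6.78, 5.94, 5.49 and 5.82 in PDGF+p53-/- tumours, 6.14, 6.51, 6.82 and 5.56 in PDGF+p53-/-RBPjk-/- tumours and 5.81, 5.32, 6.24 and 5.67 in p53-/-RBPjk-/- tumours. In every tumour group 3 arrays lay above all normal arrays and 1 lay among them. The differences were 0.61 ± 0.27 (adjusted p = 0.102), 0.86 ± 0.27 (1.81-fold, adjusted p = 0.0199) and 0.36 ± 0.27 (adjusted p = 0.336). The single call was lost without normal replicate 1 (0.0506) or PDGF+p53-/-RBPjk-/- replicate 2 (0.0597) or 3 (0.079). Its partners Col6a1 (-0.25, -0.30 and -0.33) and Col6a2 (-0.07, -0.02 and 0.00) were not called.

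Fibroblast and meningeal markers, whose cells make collagens I, III and VI, were called lower in 5, 6 and 7 of 12 cases and higher in 1, 2 and 0 in the 3 tumour groups. Of all genes 17.6%, 17.9% and 20.4% were called lower. The mean of the 12 markers was 6.68 to 6.88 in normal arrays, 6.20 to 7.02 in PDGF+p53-/- arrays, 6.11 to 6.76 in PDGF+p53-/-RBPjk-/- arrays and 6.20 to 6.47 in p53-/-RBPjk-/- arrays. The PDGF+p53-/- array with the highest Col6a3, replicate 1, was also the highest for these markers, at 0.24 above the normal mean, while the other 3 of that group lay at -0.59 to -0.37. In PDGF+p53-/-RBPjk-/- tumours replicate 3 was highest for both, with Col6a3 at 6.82 and the markers at -0.03. In p53-/-RBPjk-/- tumours the order differed. Col6a3 was highest in replicate 3 (6.24, markers at -0.43) and the markers in replicate 1 (-0.31, Col6a3 at 5.81). The part of these markers in the result was not tested.

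Col6a5, another long chain of collagen VI, rose in p53-/-RBPjk-/- tumours through 2 of the 4 arrays. Its probe set read 5.53, 5.44, 5.44 and 5.33 in normal brain, 5.64, 5.57, 5.54 and 5.48 in PDGF+p53-/- tumours and 5.50, 4.86, 5.11 and 5.54 in PDGF+p53-/-RBPjk-/- tumours. In p53-/-RBPjk-/- tumours it read 5.41, 6.96, 5.79 and 7.01. Replicates 2 and 4 stood well above the rest and replicate 1 lay among the normal arrays. The difference from normal brain was 0.86 ± 0.27 (adjusted p = 0.0187) and that from PDGF+p53-/-RBPjk-/- tumours 1.04 ± 0.27 (2.05-fold, adjusted p = 0.0459).

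The second probe set of Col6a5 read 5.05, 8.40, 5.29 and 8.67 in the same 4 arrays, and no more than 5.57 in any of the other 12. Without replicate 2 or replicate 4 the adjusted p against normal brain was 0.0775 and 0.0781. The call against PDGF+p53-/-RBPjk-/- tumours was lost without any 1 of 12 arrays (0.0521 to 0.141), all but PDGF+p53-/- replicate 3, PDGF+p53-/-RBPjk-/- replicate 4 and p53-/-RBPjk-/- replicates 1 and 3. With the other groups left out of the fit the call against normal brain (0.059) and the one between tumours (0.154) were lost. The latter also ended with trend and robust settings (0.0544) and without the neuron-rich arrays (0.109). Col6a4 and Col6a6, the neighbours of Col6a5 on chromosome 9, did not exceed their highest normal array (5.93 and 6.70) in p53-/-RBPjk-/- replicates 2 and 4. Col6a4 read 5.49 and 5.59 there, yet these were its highest values among the tumour arrays. Col6a6 read 5.76 and 6.57, the lowest and the highest of its group.

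**Figure D3:**
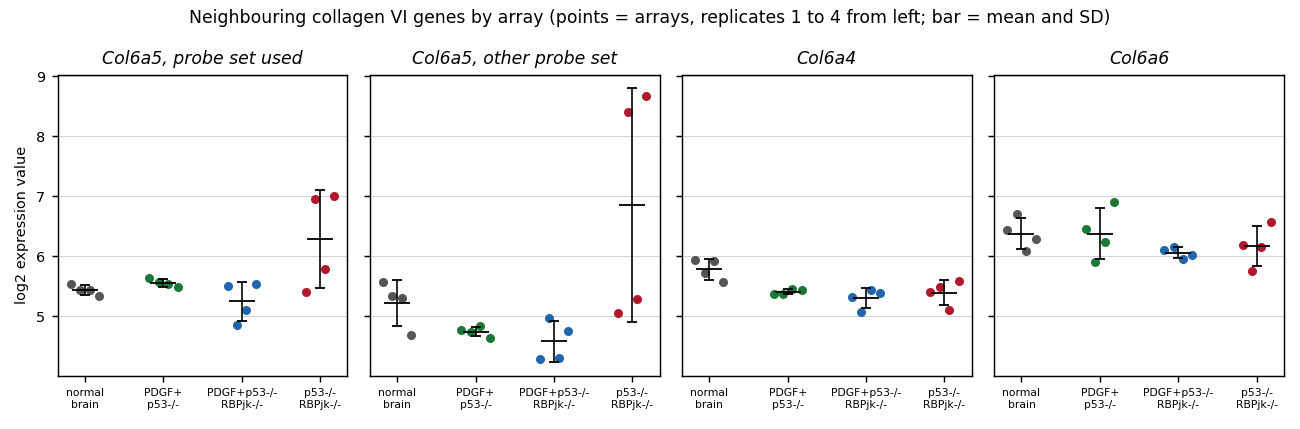
Log2 expression values of Col6a5 by both of its probe sets and of its neighbours Col6a4 and Col6a6 in 16 arrays, with group means and SD on an axis that does not start at 0. Replicates 2 and 4 of the p53-/-RBPjk-/- tumours stand out for Col6a5 by both probe sets (6.96 and 7.01, 8.40 and 8.67). In these arrays neither neighbour exceeds its highest normal array (5.93 for Col6a4 and 6.70 for Col6a6).

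Col18a1, a multiplexin of basement membranes whose end fragment is endostatin, rose in all tumour groups. It read 5.95, 5.27, 5.86 and 5.75 in normal brain and 6.54, 6.78, 5.99 and 6.51 in PDGF+p53-/- tumours. It read 6.66, 7.08, 6.73 and 6.29 in PDGF+p53-/-RBPjk-/- tumours and 6.40, 6.57, 5.80 and 6.53 in p53-/-RBPjk-/- tumours. Both PDGF-B groups lay above normal brain, and 1 p53-/-RBPjk-/- array lay among the normal ones. The differences were 0.75 ± 0.21 (1.68-fold, adjusted p = 0.0109), 0.99 ± 0.21 (1.98-fold, adjusted p = 0.00131) and 0.62 ± 0.21 (1.54-fold, adjusted p = 0.0282).

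The last of these Col18a1 calls was lost without normal replicate 2 (0.108) and without p53-/-RBPjk-/- replicate 1 (0.059), 2 (0.0842) or 4 (0.0785), while the other 2 held in all 24 settings. Col15a1, the other multiplexin, gave 0.13, 0.19 and 0.04 and was not called.

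Col25a1, a transmembrane collagen made by neurons and found in amyloid plaques, fell in all tumour groups. It read 6.17, 6.38, 6.32 and 5.92 in normal brain and 5.38, 5.85, 5.87 and 5.63 in PDGF+p53-/- tumours. It read 5.36, 5.60, 5.35 and 5.37 in PDGF+p53-/-RBPjk-/- tumours and 5.58, 5.35, 5.30 and 5.65 in p53-/-RBPjk-/- tumours. No tumour array reached the lowest normal array. The differences were -0.52 ± 0.14 (adjusted p = 0.00743), -0.78 ± 0.14 (adjusted p = 0.000229) and -0.73 ± 0.14 (adjusted p = 0.000351), and they held in all 23 settings that kept the gene.

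The 8 neuron markers also fell: 8 of 8 were lower in every tumour group, while 17.6%, 17.9% and 20.4% of all genes were. The mean of these markers was 10.55 to 10.71 in normal arrays and 7.33 to 8.76, 7.02 to 8.50 and 6.36 to 7.80 in the tumour groups. Within the tumour groups the order of arrays differed. Replicate 3, the neuron-rich array of each tumour group, had the highest Col25a1 in PDGF+p53-/- tumours (5.87). It had the lowest in PDGF+p53-/-RBPjk-/- (5.35) and p53-/-RBPjk-/- tumours (5.30). What part the neuron markers had in the result was not tested. The other 3 transmembrane collagens were not called, with Col13a1 at 0.13, -0.02 and 0.11. Of the remaining classes, the 3 short chain network collagens, the anchoring fibril collagen Col7a1 (0.11, 0.05 and 0.03) and Col26a1 (0.10, -0.09 and 0.23) held no call. Col8a1, a short chain collagen of vessel walls, differed by 0.16, 0.57 and -0.28 and had the widest spread among PDGF+p53-/- and PDGF+p53-/-RBPjk-/- arrays, with an SD of 0.60 and 0.68.

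Between tumour groups the RBPjk deletion within the PDGF model left no collagen past the threshold. In PDGF+p53-/-RBPjk-/- against PDGF+p53-/- tumours limma called 0 of 44 collagens, with 0.0201% of all genes called (0.015% higher and 0.00502% lower), the smallest adjusted p was 0.838 (Col19a1, -0.52), and 2 collagens had an unadjusted p under 0.05. The median half-width of the 95% interval was 0.29, and for 42 of the 44 the interval stayed within a 2-fold change; those of Col8a1 and Col11a1 did not. So a missed threshold does not show equal levels. In p53-/-RBPjk-/- against PDGF+p53-/-RBPjk-/- tumours 5 of 44 were called (11.4%), 1 higher and 4 lower, with 3.27% of all genes called (0.637% higher and 2.63% lower). The count of 5 fell to 1 without the 3 neuron-rich arrays and without PDGF+p53-/-RBPjk-/- replicate 1 or 3. It was 2 without normal replicate 1 or 4, PDGF+p53-/-RBPjk-/- replicate 2 or p53-/-RBPjk-/- replicate 2. It was 3 without normal replicate 2, PDGF+p53-/- replicate 1 or 2, or p53-/-RBPjk-/- replicate 1 or 4. In p53-/-RBPjk-/- against PDGF+p53-/- tumours 3 of 44 were called (6.82%), all lower, with 5.54% of all genes called (1.93% higher and 3.61% lower). Here 2 were called without the neuron-rich arrays, and 1 without normal replicate 1 or 4, PDGF+p53-/- replicate 2 or 4, or PDGF+p53-/-RBPjk-/- replicate 1 or 2. Of these 8 calls, those of Col11a1 (-1.35) and of Col19a1 against PDGF+p53-/- tumours (-1.47) held in all 24 settings. The median collagen difference was -0.01, 0.01 and -0.01 in the 3 comparisons, and that of all genes was 0.02, -0.01 and 0.01.

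For most collagens that were not called against normal brain the interval of the array signal was narrow. Some of them, among them Col4a3, Col4a4, Col4a5 and Col4a6, were dim. Of all 44 collagens, 40 read between 4.5 and 7.5 in all 16 arrays. Without a detection limit a narrow interval does not bound the change of RNA of any of these genes. The 95% interval stayed within a 2-fold change for 34 of 36 in PDGF+p53-/- tumours, 33 of 36 in PDGF+p53-/-RBPjk-/- tumours and 36 of 36 in p53-/-RBPjk-/- tumours. The exceptions were Col6a3 and Col9a1 in the first group and Col8a1, Col9a1 and Col12a1 in the second. The median SD of a collagen within a group was 0.15 to 0.17, against 0.19 to 0.20 over all genes.

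Genes that make and process collagen mostly rose where they were called. Of 29 listed genes of collagen synthesis and processing 27 were measured. In PDGF+p53-/- tumours 13 rose and 1 fell (51.9% called, background 31.1%), in PDGF+p53-/-RBPjk-/- tumours 15 rose and 1 fell (59.3%, background 33.6%), and in p53-/-RBPjk-/- tumours 8 rose and 3 fell (40.7%, background 36.8%). Their median differences were 0.49, 0.50 and 0.30. Many of these enzymes also modify other secreted proteins.

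**Figure D4:**
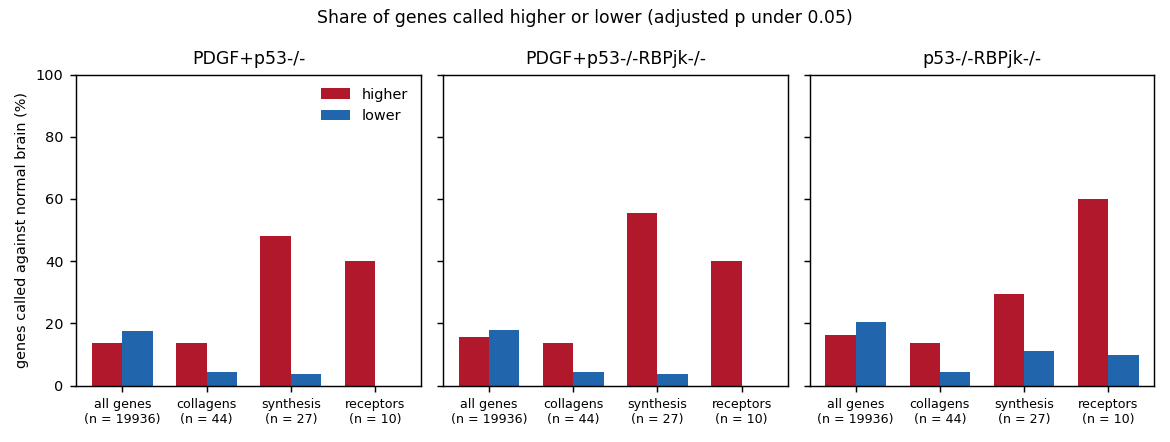
Percentage of genes called higher (red) or lower (blue) than normal brain among all genes, the 44 collagens, 27 genes of collagen synthesis and processing and 10 collagen receptors, for the 3 tumour groups. Collagens rose in 13.6% of cases in each group, while synthesis genes rose in 48.1%, 55.6% and 29.6%.

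P3h2, a prolyl 3-hydroxylase that acts on basement membrane collagen, rose most on the list in PDGF+p53-/- tumours. It read 7.70, 8.03, 7.58 and 7.35 in normal brain, 10.18, 11.08, 9.60 and 9.77 in PDGF+p53-/- tumours, 9.68 to 10.34 in PDGF+p53-/-RBPjk-/- tumours and 9.46, 9.05, 8.57 and 8.01 in p53-/-RBPjk-/- tumours. Both PDGF-B groups lay far above normal brain, and 1 p53-/-RBPjk-/- array fell just inside the normal range. The differences were 2.49 ± 0.30 (adjusted p = 6.1e-06), 2.31 ± 0.30 (1.17e-05) and 1.11 ± 0.30 (0.00746). P3h2 was lower in p53-/-RBPjk-/- tumours than in PDGF+p53-/- tumours by -1.38 (adjusted p = 0.0135), which was lost with the other groups left out of the fit (adjusted p = 0.09).

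P3h2 was also lower in p53-/-RBPjk-/- than in PDGF+p53-/-RBPjk-/- tumours by -1.20 (adjusted p = 0.0391). That last call was lost without any 1 of 7 arrays (0.0511 to 0.14): normal replicates 1 and 3, PDGF+p53-/-RBPjk-/- replicates 1, 2 and 3 and p53-/-RBPjk-/- replicates 3 and 4. It was also lost with the other groups left out of the fit (0.0526), housekeeping centring (0.0578), trend and robust settings (0.0549) and without the neuron-rich arrays (0.209).

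Plod2, a lysyl hydroxylase that directs stable cross-links, rose in all groups. Its values ran from 6.85 to 7.19 in normal brain, 8.04 to 9.64 in PDGF+p53-/- tumours, 9.22 to 9.55 in PDGF+p53-/-RBPjk-/- tumours and 8.37 to 8.98 in p53-/-RBPjk-/- tumours. No tumour array overlapped normal brain, and the differences were 1.95 ± 0.24 (adjusted p = 7.32e-06), 2.37 ± 0.24 (7.76e-07) and 1.71 ± 0.24 (1.81e-05). Its relatives Plod1 and Plod3, and the prolyl 4-hydroxylase subunits P4ha1 and P4hb, named after their values were seen, rose in all 3 groups by 0.62 to 1.31. P4ha3, another subunit, fell in p53-/-RBPjk-/- tumours by 0.91 (adjusted p = 0.00242).

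Pcolce2, which enhances the trimming of procollagen, rose by 1.05 (adjusted p = 0.00794) and 1.53 (adjusted p = 0.000349) in the PDGF-B groups and gave 0.35 in p53-/-RBPjk-/- tumours. Bmp1, the proteinase that trims procollagen ends, rose by 1.01 (0.000982) and 1.06 (0.000615) and gave 0.28. Its relative Tll1 fell in all groups, by a log2 difference of -1.96, -1.82 and -2.19 (adjusted p = 0.00172, 0.00276 and 0.000476). Normal arrays of Tll1 ran from 4.92 to 7.55, and the lowest of them lay within the range of both RBPjk-deleted groups and above all PDGF+p53-/- arrays. The tumour values of Tll1 were dim, at 4.40 to 4.88, 3.88 to 5.56 and 4.09 to 4.94. Adamts3, an N-propeptidase of procollagen, differed by 0.50 and -0.96 in the PDGF-B groups, neither called, and fell by 1.86 in p53-/-RBPjk-/- tumours (adjusted p = 0.000983). Adamts3 was lower there than in PDGF+p53-/- tumours by -2.36 ± 0.39 (adjusted p = 0.00255), without overlap of the arrays and in all 24 settings.

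Further members were lower in p53-/-RBPjk-/- than in PDGF+p53-/- tumours: Bmp1 by -0.73 (0.0474), Pcolce, a relative of Pcolce2, by -0.85 (0.0258) and Ppib, a chaperone of the endoplasmic reticulum, by -0.61 (0.0295). Against PDGF+p53-/-RBPjk-/- tumours Bmp1 (-0.77, adjusted p = 0.0498) and Pcolce2 (-1.17, adjusted p = 0.0295) were lower. All of these calls were lost on leaving out single arrays. For Bmp1 any 1 of 12 arrays did so against PDGF+p53-/- tumours (0.0507 to 0.146), all but PDGF+p53-/- replicates 1 and 3, PDGF+p53-/-RBPjk-/- replicate 4 and p53-/-RBPjk-/- replicate 2. For its other call any 1 of 11 did (0.0504 to 0.154), all but PDGF+p53-/- replicates 1, 2 and 3, PDGF+p53-/-RBPjk-/- replicate 4 and p53-/-RBPjk-/- replicate 2. The Pcolce call ended when PDGF+p53-/- replicate 2 (0.0774) was left out, and likewise for p53-/-RBPjk-/- replicates 1 (0.0525) and 2 (0.0622). The Ppib call ended when PDGF+p53-/- replicates 1 (0.0555) or 2 (0.103) were left out, and likewise for p53-/-RBPjk-/- replicates 1 (0.0528), 3 (0.0836) and 4 (0.0784). Pcolce2 was lost without PDGF+p53-/-RBPjk-/- replicate 1 (0.0759), 2 (0.0894) or 3 (0.0927) or p53-/-RBPjk-/- replicate 3 or 4 (0.0907 each). With the other groups left out of the fit all 5 calls were lost (0.052 to 0.14), and without the neuron-rich arrays all but that of Pcolce were (0.0675 to 0.277).

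Of 11 listed collagen receptors 10 were measured, and 4, 4 and 6 of them rose and 0, 0 and 1 fell against normal brain. Of all genes 13.6%, 15.7% and 16.4% rose and 17.6%, 17.9% and 20.4% fell. The median receptor difference was 0.30, 0.34 and 0.61. Itgb1, the beta chain shared by collagen-binding integrins, rose by 1.75 ± 0.15, 1.68 ± 0.15 and 1.58 ± 0.15 (adjusted p = 1.78e-07, 2.27e-07 and 2.54e-07). Itga1, its collagen IV-binding partner, read 6.94, 7.05, 6.71 and 7.11 in normal brain, 9.39, 9.88, 8.63 and 9.05 in PDGF+p53-/- tumours, 9.41, 9.34, 9.58 and 8.95 in PDGF+p53-/-RBPjk-/- tumours and 8.63, 7.81, 7.85 and 7.64 in p53-/-RBPjk-/- tumours. Every tumour array lay above normal brain, and p53-/-RBPjk-/- tumours lay lowest among the tumours. Itga1 was higher than in normal brain by 2.29 ± 0.24, 2.37 ± 0.24 and 1.03 ± 0.24 (adjusted p = 1.19e-06, 6.74e-07 and 0.00207).

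Itga1 was lower in p53-/-RBPjk-/- tumours than in both PDGF-B groups, by -1.25 (PDGF+p53-/-, adjusted p = 0.006) and -1.34 (PDGF+p53-/-RBPjk-/-, adjusted p = 0.00644). The first was lost with the other groups left out of the fit (adjusted p = 0.059). Ddr2, a receptor kinase for fibrillar collagen, read 5.49 to 5.60 in normal brain, 6.90 to 7.74 in PDGF+p53-/- tumours, 6.93 to 8.08 in PDGF+p53-/-RBPjk-/- tumours and 7.61 to 8.44 in p53-/-RBPjk-/- tumours. All tumour arrays lay above normal brain. The differences of Ddr2 were 1.81 ± 0.23, 1.88 ± 0.23 and 2.64 ± 0.23 (adjusted p = 8.87e-06, 4.73e-06 and 7.69e-08). Its further rise from PDGF+p53-/- to p53-/-RBPjk-/- tumours, 0.83 (adjusted p = 0.0406), was lost without any 1 of 11 arrays (0.0509 to 0.125), all but PDGF+p53-/- replicates 1 and 2, PDGF+p53-/-RBPjk-/- replicates 3 and 4 and p53-/-RBPjk-/- replicate 3, and also with the other groups left out of the fit (0.099) or array weights (0.0662). Itga11, a receptor chain for fibrillar collagens, fell in p53-/-RBPjk-/- tumours by 0.50 (adjusted p = 0.004). Its values were dim, at 5.48 to 5.62 in normal brain and 4.76 to 5.21 in these tumours.

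**Figure D5:**
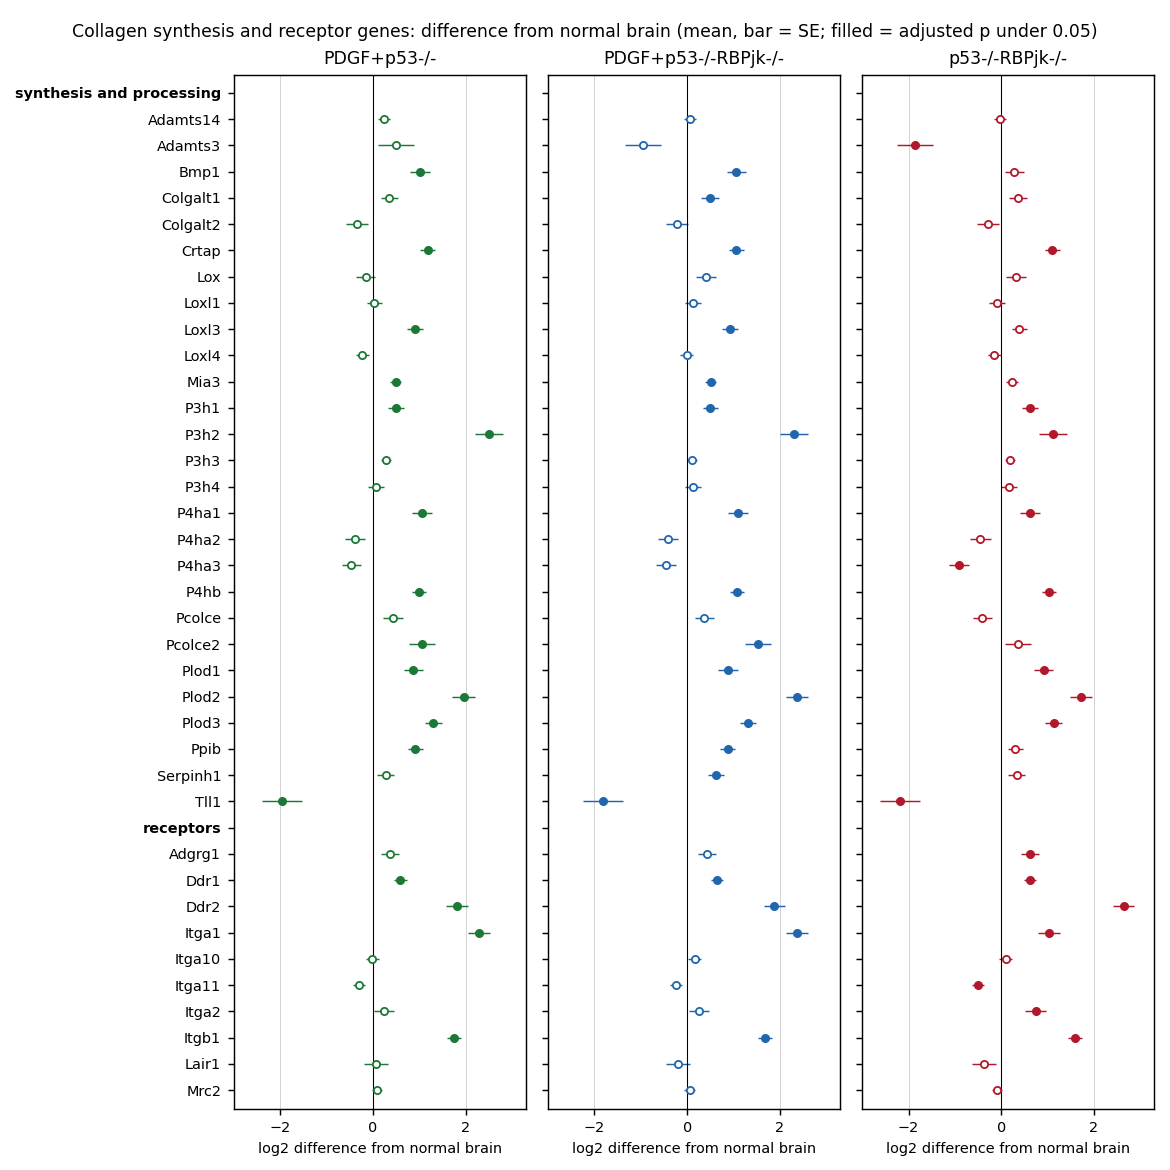
Log2 difference from normal brain of 27 genes of collagen synthesis and processing and 10 collagen receptors in the 3 tumour groups. Points are differences of means of 4 arrays, bars are standard errors and filled points passed an adjusted p of 0.05; P3h2, Plod2, Itga1, Itgb1 and Ddr2 lie farthest right and Tll1 farthest left.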

How the data were processed

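Total RNA was labelled with biotin for 1-colour Affymetrix arrays, per the labels' protocols. The deposited table holds log2 expression values of 35556 probe sets, for which the authors used RMA and oligo, per the submitters' processing notes, with versions not given in the sources used here. RMA equalises the arrays, so a change in total RNA per cell cannot be seen. Of the probe sets 21789 had 1 symbol, 1621 several and 12146 none here, and 21701 matched the reference table. Only 1-symbol probe sets were used, the one with the highest mean where a gene had several, which gave 19936 genes. Each group was assigned from titles. One limma 3.58.1 fit in R 4.3.3 (lmFit, eBayes) held all 16 arrays, with 12 residual and 5.33 prior degrees of freedom, and gave 6 two-sided comparisons. The median SE of a difference was 0.15, a precision set by how few arrays a group has. Single genes were also compared by an exact permutation test. Tested on simulated data for PDGF+p53-/- against control (19936 genes), the fit called 86 of 100 genes changed by 1 log2 unit, 100 of 100 changed by 2 and 7 of 19736 unchanged genes. The simulated noise was normal and independent between genes, and no other genes changed. In the real comparison 31.1% of genes were called, so these rates need not hold there. Tables and figures used Python 3.11.15, numpy 2.4.6, pandas 2.3.3 and matplotlib 3.10.9.

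The members, the lists of synthesis, receptor and cell type marker genes, and the alternatives were chosen with earlier results of these data known. The alternatives left out each array in turn, added the replicate number as a block, fitted only the 2 groups compared, averaged probe sets, left out dim genes (those that reach a log2 value of 6 in fewer than 4 arrays), centred on housekeeping genes, or used trend and robust settings or array weights. A further one, chosen after seeing the data, left out the 3 neuron-rich tumour arrays. Array values are given for 7 collagens fixed by name, those called between tumour groups and the 2 largest calls of each class, and other genes are named for the 3 largest rises and falls of a list or a call between tumour groups. Promoter windows matched 35 of the 44 collagens. The marker lists for astrocytes (6, 6 and 6 of 7 lower), choroid plexus (3, 4 and 4 of 7 lower) and macrophages (3, 2 and 3 of 8 higher and 1, 1 and 3 lower) are not used further. Of all genes 17.6%, 17.9% and 20.4% were called lower and 13.6%, 15.7% and 16.4% higher. Scanner files were not used here.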

Additional observations from a re-analysis of the deposited data

Results flagged for a closer look

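Among 56 sets of 4 arrays of the collagens given array by array, 2 had an array far from the other 3, and chance flags about 1 set in 20. Col11a1 read 6.64 in normal replicate 2 against a median of 6.34 in the others. Col25a1 read 5.60 in PDGF+p53-/-RBPjk-/- replicate 2 against 5.36.

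Some log2 differences between tumour groups passed the test of the difference itself. p53-/-RBPjk-/- tumours were lower than PDGF+p53-/-RBPjk-/- tumours for Col11a1 (-1.35), Col12a1 (-0.96), Col19a1 (-0.95), Col20a1 (-0.73), P3h2 (-1.20), Pcolce2 (-1.17), Bmp1 (-0.77) and Itga1 (-1.34), and higher for Col6a5 (1.04). They were lower than PDGF+p53-/- tumours for Col12a1 (-0.88), Col19a1 (-1.47), Col20a1 (-0.67), P3h2 (-1.38), Adamts3 (-2.36), Bmp1 (-0.73), Pcolce (-0.85), Ppib (-0.61) and Itga1 (-1.25), and higher for Ddr2 (0.83). Of these calls only Col11a1 (-1.35), Itga1 (-1.34), Col19a1 (-1.47) and Adamts3 (-2.36) held in all 24 other settings. Every other call was lost in at least 1 setting.

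The probe set of Col6a5 that the fit did not use read 8.40 and 8.67 in p53-/-RBPjk-/- replicates 2 and 4, above the normal arrays, whose highest value was 5.57.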

How the results depend on the processing

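No collagen call changed its direction under any setting. Of the 32 collagen calls over the 6 comparisons, 15 passed the threshold in every setting that kept the gene, and 17 missed it in at least 1. Leaving out 1 array at a time gave 6 to 8 called collagens against normal brain in PDGF+p53-/- and in PDGF+p53-/-RBPjk-/- tumours, 4 to 8 in p53-/-RBPjk-/- tumours, 0 to 0 for the RBPjk deletion within the PDGF model, 1 to 5 for p53-/-RBPjk-/- against PDGF+p53-/-RBPjk-/- and 1 to 3 for p53-/-RBPjk-/- against PDGF+p53-/- tumours. The lows of p53-/-RBPjk-/- tumours came without normal replicate 2 (5) and p53-/-RBPjk-/- replicates 2 (4) or 4 (4). Without dim genes that group had 5. For p53-/-RBPjk-/- against PDGF+p53-/-RBPjk-/- tumours the count of 5 became 2 with only the 2 groups in the fit, 3 with housekeeping centring, 3 with trend and robust settings and 1 without the neuron-rich arrays. Against PDGF+p53-/- tumours the count of 3 became 1 with only the 2 groups, 1 with housekeeping centring and 1 with array weights. The cause was not tested.

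Whether replicate numbers pair the samples was not settled. Of 24 same-numbered pairs, 7 correlated above 0.1 in their deviations from the group means (r -0.12 to 0.18). Pairs with different numbers were not set beside them, and replicate 3 was the neuron-rich array of each tumour group. With the replicate number as a block the counts were 8, 8, 8, 0, 3 and 3 in the order above. For p53-/-RBPjk-/- against PDGF+p53-/-RBPjk-/- tumours that is 3 in place of 5, since the block ended the calls of Col6a5 (adjusted p = 0.0564) and Col12a1 (0.0703). Against PDGF+p53-/- tumours it ended the call of Col12a1 (0.0719) and added one of Col11a1, so the equal count hides a change of genes. No other collagen call changed under the block. The 9 measured housekeeping genes moved themselves, with 6, 6 and 7 called against normal brain, beside 31.1%, 33.6% and 36.8% of all genes. Signal over background was not available, so values of the 14 dim collagens have no detection limit here.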
